A study of Mus musculus with 6 samples.

Results

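The proteasome subunit genes were followed in mouse embryo heads at E10.5, a stage of growth of the brain vesicles. They were taken as the genes with a symbol of the form Psma, Psmb, Psmc or Psmd plus a number in the platform annotation. The rule gave 39 genes of the 19938 measured by a probe set with a single symbol. Each gene was read from its brightest probe set, with no brightness filter. By role they comprised 14 genes of the standard core particle, 17 of the regulatory particle, 3 of the immunoproteasome, 2 core genes known from single tissues and 3 assembly chaperones of the regulatory base.

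There were 3 heads labelled Tasp1 knockout (KO) and 3 labelled wild type (WT), each a separate embryo on the C57Bl6 background. All came from intercrosses of Tasp1+/- mice; the KO-labelled embryos are given as Tasp1-/-, and no other agent or allele is named. Forebrain and midbrain tissue was dissected from every head, and each RNA was read on 1 Affymetrix array. Tasp1 encodes Taspase1, a protease that cleaves several nuclear proteins, and the study asked which transcripts depend on it during development.

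The Tasp1 probe set read 8.63, 8.63 and 8.50 in KO-labelled heads, against 8.10, 8.45 and 8.49 in WT-labelled heads (log2 signal). Its position relative to the deletion is not given, so this signal says nothing on the labels, and groups are named by label throughout. WT 2 had the pattern of a female, with an Xist signal of 12.3 where the other 5 heads read 4.90 to 5.24, and sex was thus not balanced between the groups. Of the forebrain and midbrain markers, 7 of 7 measured lay above the brightness cut (a log2 signal of 7.06, below which the dimmest 40% of probe sets fall). Of the hindbrain markers 1 of 5 did, Hoxb1.

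The proteasome is the protease that degrades proteins tagged with ubiquitin. Its core particle is a barrel of alpha and beta rings with the active sites inside, on the beta subunits Psmb5, Psmb6 and Psmb7, and the regulatory particle that caps it recognises, unfolds and feeds in the substrate. In cells exposed to interferon, Psmb8, Psmb9 and Psmb10 can replace the standard active subunits. The transcription factor encoded by Nfe2l1 is known to raise many subunit genes together, through antioxidant response elements near their start sites, when proteasome activity is short.

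Promoters were read to show which members carry a match to the core of that element near the start. RefSeq promoters of assembly GRCm38.p6, from 250 bases before to 50 after the start, were at hand for 32 of the 39 genes. The element's core, TGACNNNGC, was searched on both strands. It occurred in 5 of these 32 genes (15.6%), against 14.0% of all 27025 genes in the table. The CCAAT box, another common promoter element, occurred in 13 of 32 (40.6%), against 41.1% of all genes. Both shares lay near those of all genes. The 5 matches are shown with up to 10 bases on each side, 5′ to 3′ along the gene's strand, with the match in capitals; in Psmc6 and Psmd12 it lies on the opposite strand.
Psmb5, chr14:54618024-54618052, minus strand: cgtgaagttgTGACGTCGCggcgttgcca
Psmb6, chr11:70525338-70525366, plus strand: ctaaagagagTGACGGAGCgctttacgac
Psmc6, chr14:45329587-45329615, plus strand: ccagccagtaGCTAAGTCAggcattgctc
Psmd9, chr5:123228149-123228177, plus strand: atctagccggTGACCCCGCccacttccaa
Psmd12, chr11:107479278-107479299, plus strand: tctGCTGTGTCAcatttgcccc

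Whole promoters are printed for a pair of members. Psmb5 encodes the subunit with chymotrypsin-like activity and holds a match to the element's core. Psmd6, a lid subunit, is the member with the smallest p between the labels and holds no match in this window. Whether the match in Psmb5 acts as an element was not tested.
Psmb5, chr14:54617946-54618245, minus strand: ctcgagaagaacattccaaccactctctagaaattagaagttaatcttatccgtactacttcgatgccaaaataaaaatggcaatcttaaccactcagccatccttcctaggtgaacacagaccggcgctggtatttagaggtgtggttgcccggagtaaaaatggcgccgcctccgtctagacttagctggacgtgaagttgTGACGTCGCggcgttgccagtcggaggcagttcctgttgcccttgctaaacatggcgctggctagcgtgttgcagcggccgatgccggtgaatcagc
Psmd6, chr14:14120896-14121195, minus strand: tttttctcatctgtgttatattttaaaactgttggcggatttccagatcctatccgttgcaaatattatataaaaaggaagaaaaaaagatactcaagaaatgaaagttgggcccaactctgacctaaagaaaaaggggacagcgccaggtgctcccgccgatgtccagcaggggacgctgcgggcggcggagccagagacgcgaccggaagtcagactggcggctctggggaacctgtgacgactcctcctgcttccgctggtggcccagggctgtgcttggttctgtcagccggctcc

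None of the 39 proteasome genes passed the test between KO-labelled and WT-labelled heads (limma, Benjamini-Hochberg adjustment over all genes, threshold 0.05; smallest adjusted p among members 0.651). Over all genes 2 passed (0.01%): Caprin2, higher, and Mir9-1, lower, both at an adjusted p of 0.049 and both named after their values were seen. At an unadjusted p under 0.05 stood 1 proteasome gene, Psmd6, against 6.28% of all genes. Differences, always KO-labelled minus WT-labelled in log2 signal, ran from −0.17 for Psmd6 to +0.14 for Psma1. Of the 39, 29 were below 0 and 10 above (74.4% below, against 57.2% of all genes), with a median of −0.018 against −0.013 over all genes. Without WT 1 the number below 0 was 17.

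The intervals bound what these arrays could show. For 26 of the 31 standard core and regulatory genes, the 95% confidence interval of the difference lay wholly within ±0.25, which is a ratio of 1.19. The exceptions were Psmd6, Psma1, Psma2, Psma3 and Psma5. Over the 31 genes, the lowest interval bound was a ratio of 0.816 (Psmd6) and the highest one of 1.22 (Psma1). In such bulk tissue, fewer cells of a type and less RNA per cell cannot be told apart.

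**Figure D1:**
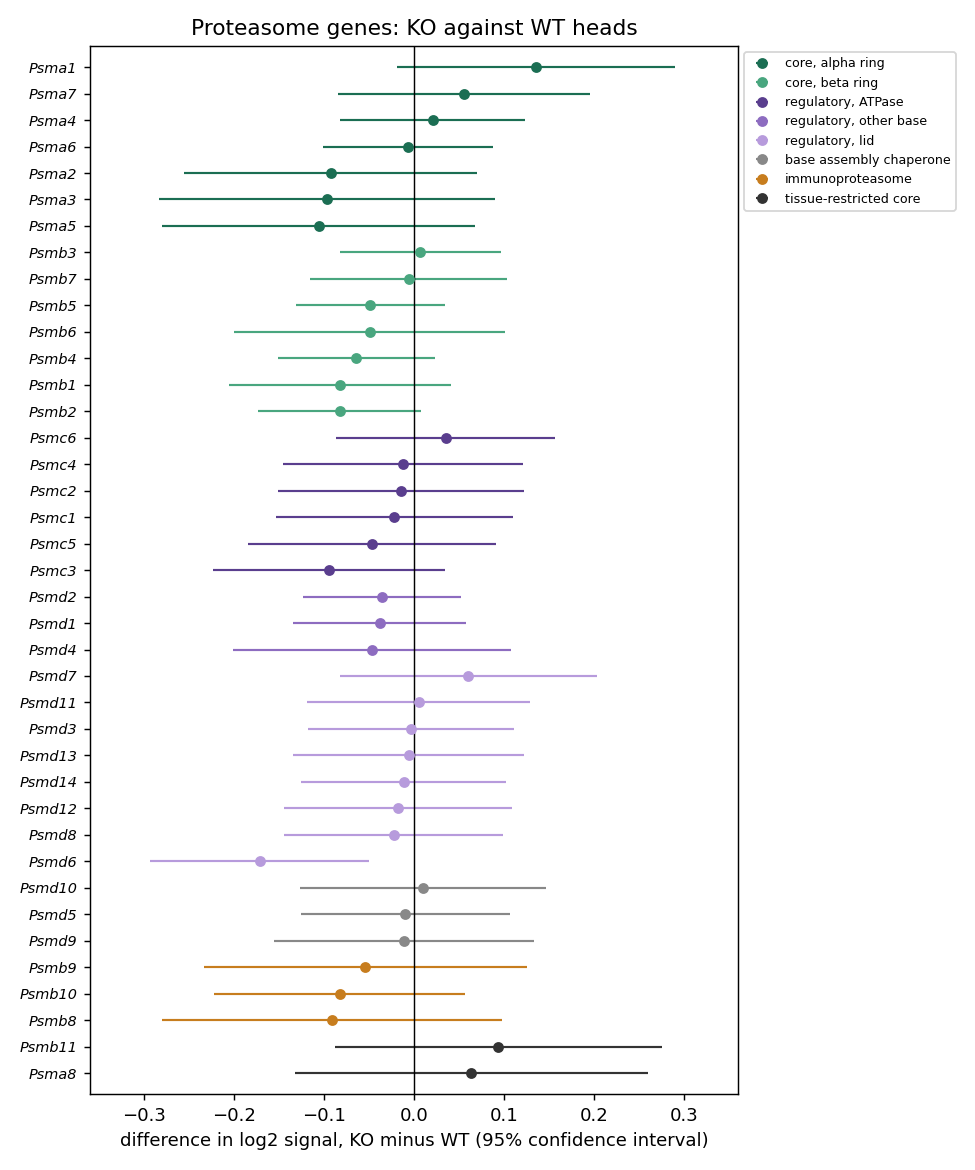
Difference in log2 signal, KO-labelled minus WT-labelled heads (n = 3 each), for the 39 proteasome genes grouped by role; points are limma estimates and lines their 95% confidence intervals. The interval of Psmd6 alone, at −0.17, leaves out 0, and the other 38 hold it.

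The groups did not overlap for 5 members (12.8%), against 11.1% of all genes. All 5 were lower in KO-labelled heads, where 6.99% of all genes were: Psmd6, Psmb2, Psmb4, Psmc3 and Psmb10. The smallest p of an exact permutation test over 3 and 3 heads, two-sided, is 0.1. Groups that do not overlap always reach this value, so it adds no evidence for these 5 genes.

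The alpha ring forms the outer faces of the core and its gate. Its 7 genes had a median of −0.0070, with 3 higher and 4 lower, and spread widest among the classes, from −0.11 for Psma5 to +0.14 for Psma1. Psma1 read 11.45, 11.67 and 11.53 in KO-labelled heads, against 11.57, 11.34 and 11.34 in WT-labelled heads. KO 2 was highest and WT 1 lay among the KO-labelled values, so the groups overlapped (difference +0.14, SE 0.07, limma adjusted p = 0.83). Without WT 1 the Psma1 difference was +0.21, with an adjusted p of 0.50 in limma.

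Psma5 read 9.97, 9.97 and 9.75 in KO-labelled heads, against 10.13, 9.87 and 10.02 in WT-labelled heads. On this probe set the low KO-labelled value came from KO 3 alone, and the groups overlapped (−0.11, SE 0.08, limma adjusted p = 0.88). A second Psma5 probe set read 9.81, 9.98 and 9.82 in KO-labelled heads, against 10.02, 9.78 and 9.96 in WT-labelled heads. There KO 1 was as low as KO 3, and the groups overlapped too. Psma7, on chromosome 2, read 10.29, 10.41 and 10.40 in KO-labelled heads, against 10.42, 10.19 and 10.33 in WT-labelled heads, with WT-labelled heads at both ends (+0.055). Psma2 differed by −0.093, Psma3 by −0.097, and Psma4 and Psma6 by +0.021 and −0.0070. None of these passed.

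The beta ring carries the active sites. Of its 7 genes, 6 were lower and 1 higher, with a median of −0.049 and a narrow range from −0.083 for Psmb2 to +0.0070 for Psmb3. Psmb6 encodes the standard subunit that cuts after acidic residues. It read 10.93, 11.13 and 11.05 in KO-labelled heads, against 11.23, 11.02 and 11.01 in WT-labelled heads, so the groups overlapped and WT 1 was the highest head.

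Psmb7, the subunit with trypsin-like activity, read 11.18, 11.23 and 11.17 in KO-labelled heads, against 11.29, 11.13 and 11.18 in WT-labelled heads. Psmb5 read 12.62, 12.64 and 12.56 in KO-labelled heads, against 12.67, 12.60 and 12.69 in WT-labelled heads. Both genes overlapped between the labels. The differences were −0.049 (95% confidence interval −0.20 to 0.10) for Psmb6, −0.0060 (−0.12 to 0.10) for Psmb7 and −0.049 (−0.13 to 0.034) for Psmb5.

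Psmb2 and Psmb4 are structural beta subunits without an active site. Psmb2 read 11.79, 11.88 and 11.83 in KO-labelled heads, against 11.97, 11.88 and 11.90 in WT-labelled heads, the highest KO-labelled head just under the lowest WT-labelled one (−0.083, SE 0.04, limma adjusted p = 0.82). Psmb4 read 11.20, 11.17 and 11.14 in KO-labelled heads, against 11.23, 11.24 and 11.22 in WT-labelled heads. Its gap was small but the heads of each label lay close together (−0.064, SE 0.04, limma adjusted p = 0.87). Psmb1, also without an active site, read 9.81, 9.94 and 9.88 in KO-labelled heads, against 9.96, 9.90 and 10.02 in WT-labelled heads, with overlap.

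The regulatory particle has a base, built on a ring of 6 ATPases that unfold the substrate, and a lid that removes ubiquitin. Its 17 genes had a median of −0.018, with 3 higher and 14 lower. Without WT 1 this median was +0.035, and that of the core, −0.049 with all heads, was 0.00062. The 6 ATPase genes, Psmc1 to Psmc6, ran from −0.095 for Psmc3 to +0.035 for Psmc6, with 5 lower and 1 higher. Psmc6 read 11.12, 11.26 and 11.21 in KO-labelled heads, against 11.25, 11.07 and 11.15 in WT-labelled heads, and the groups overlapped. Psmc3, on chromosome 2, read 9.72, 9.80 and 9.79 in KO-labelled heads, against 9.96, 9.81 and 9.81 in WT-labelled heads. All KO-labelled values were lower, KO 2 by a narrow margin, and WT 1 stood well above (limma adjusted p = 0.87).

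The other base subunits, Psmd1 and Psmd2, which form its scaffold, and the ubiquitin receptor Psmd4, differed by −0.038, −0.036 and −0.047. Of the 8 lid genes, 6 were lower and 2 higher, with a median of −0.0087. The deubiquitinating enzyme of the lid, encoded by Psmd14 on chromosome 2, differed by −0.011 (95% confidence interval −0.13 to 0.10). Its partner subunit Psmd7 read 10.71, 10.81 and 10.79 in KO-labelled heads, against 10.87, 10.62 and 10.64 in WT-labelled heads. WT 1 was the highest head and the other WT-labelled heads the lowest, so the groups overlapped (+0.060, SE 0.06, limma adjusted p = 0.93).

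Psmd6 stood apart from the rest of the lid. It read 10.33, 10.42 and 10.39 in KO-labelled heads, against 10.65, 10.48 and 10.53 in WT-labelled heads. All KO-labelled heads were below all WT-labelled heads, at 10.38 ± 0.04 on average in KO-labelled heads and 10.55 ± 0.09 in WT-labelled heads (mean ± SD over 3 heads). The ratio of signals was 0.888 (95% confidence interval 0.816 to 0.966; difference −0.17, SE 0.05, limma adjusted p = 0.651). With each head left out in turn the Psmd6 difference ran from −0.21 to −0.12 (without WT 1), and the lowest adjusted p was 0.50.

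The remaining lid genes Psmd3, Psmd8, Psmd11, Psmd12 and Psmd13 lay between −0.023 for Psmd8 and +0.0050 for Psmd11. The assembly chaperones Psmd5, Psmd9 and Psmd10, which help build the base and then leave it, differed by −0.0096, −0.011 and +0.0097. Their intervals lay between −0.16 and 0.15. Psmd5 lies on chromosome 2 and Psmd10 on the X chromosome.

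**Figure D2:**
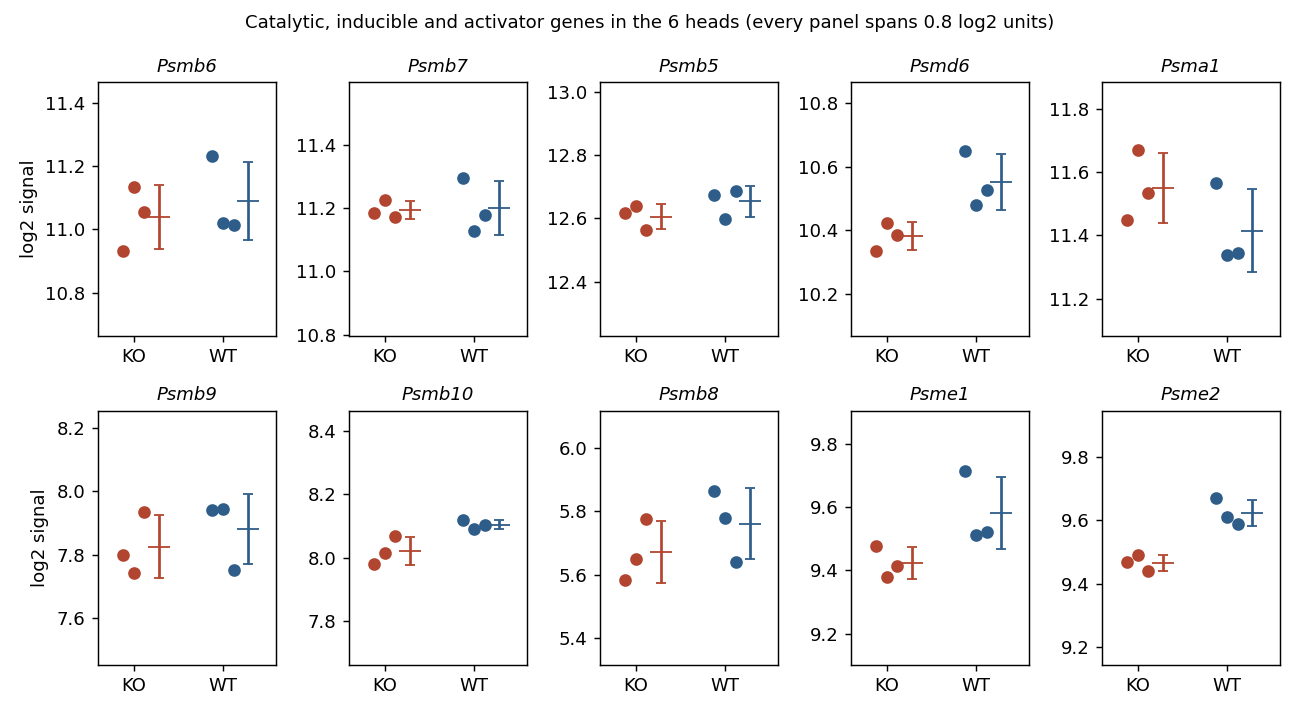
Log2 signal in each KO-labelled and WT-labelled head for the standard catalytic genes Psmb6, Psmb7 and Psmb5, the genes Psmd6 and Psma1, the inducible genes Psmb9, Psmb10 and Psmb8, and the activator genes Psme1 and Psme2; points are heads in replicate order and bars show the mean and SD (n = 3 each). The groups are apart for Psmd6, Psmb10, Psme1 and Psme2 and overlap in the other panels.

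The 3 immunoproteasome genes were all lower, with a median of −0.083, and none passed. Psmb9, the inducible counterpart of Psmb6, read 7.80, 7.74 and 7.94 in KO-labelled heads, against 7.94, 7.94 and 7.75 in WT-labelled heads. Psmb10, the counterpart of Psmb7, read 7.98, 8.02 and 8.07 in KO-labelled heads, against 8.12, 8.09 and 8.10 in WT-labelled heads. Psmb10 did not overlap, by a gap smaller than the spread of its KO-labelled heads, while Psmb9 overlapped with a head of each label at the low end.

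Psmb8, the counterpart of Psmb5, read 5.58, 5.65 and 5.78 in KO-labelled heads, against 5.87, 5.78 and 5.64 in WT-labelled heads. It lay below the brightness cut in both groups. The differences were −0.054 (95% confidence interval −0.23 to 0.13) for Psmb9, −0.083 (−0.22 to 0.056) for Psmb10 and −0.091 (−0.28 to 0.098) for Psmb8. Psma8, known from testis, and Psmb11, known from thymus, were below the brightness cut too. Psma8 read 5.56, 5.32 and 5.56 in KO-labelled heads, against 5.42, 5.51 and 5.32 in WT-labelled heads. Psmb11 read 6.43, 6.37 and 6.44 in KO-labelled heads, against 6.37, 6.41 and 6.18 in WT-labelled heads, and both genes overlapped.

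The heads differed from each other more than the labels did, and in the same way for both particles. As the mean deviation of the 14 core genes from each gene's own mean over the 6 heads, KO 1, 2 and 3 stood at −0.060, +0.036 and −0.021, against +0.098, −0.051 and −0.0018 in WT 1, 2 and 3. The 17 regulatory genes gave −0.052, +0.014 and −0.0015 in KO-labelled heads, against +0.099, −0.051 and −0.0089 in WT-labelled heads. Each head lay on the same side of 0 for both particles. The core averaged −0.015 ± 0.048 in KO-labelled heads and 0.015 ± 0.076 in WT-labelled heads, and the regulatory particle −0.013 ± 0.035 in KO-labelled heads and 0.013 ± 0.077 in WT-labelled heads (SD, 3 heads each). The core minus the regulatory deviation was thus −0.0081, +0.022 and −0.019 in KO-labelled heads, against −0.00095, −0.00054 and +0.0071 in WT-labelled heads. It averaged −0.0019 ± 0.021 in KO-labelled heads and 0.0019 ± 0.0045 in WT-labelled heads (mean ± SD over 3 heads). The KO-labelled minus WT-labelled value, −0.0038, was smaller than the spread between heads.

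**Figure D3:**
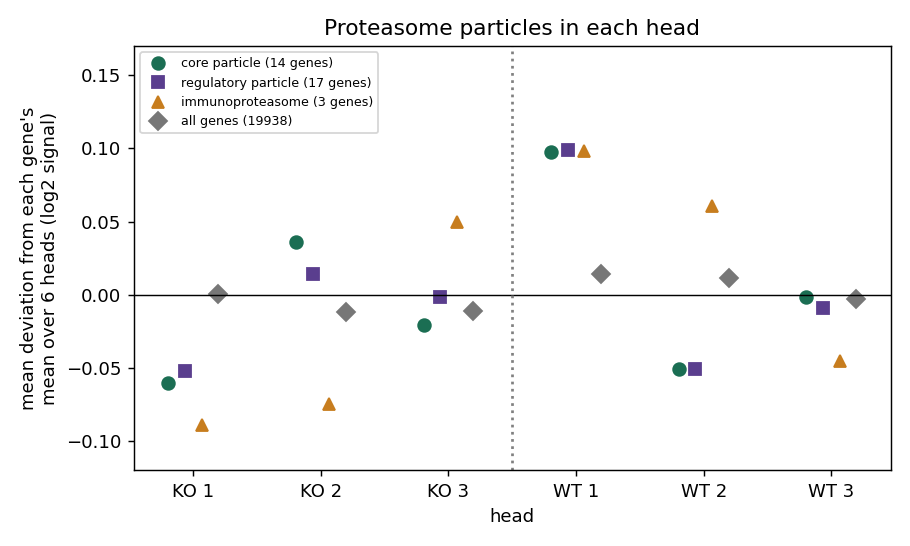
Mean deviation from each gene's own mean over the 6 heads (log2 signal) in each KO-labelled and WT-labelled head, for the core particle, the regulatory particle, the immunoproteasome and all genes. Core and regulatory points lie close together in each head, highest in WT 1 at +0.098 and +0.099 and lowest in KO 1 at −0.060 and −0.052.

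WT 1 was the head with the highest signal for 22 of the 31 standard genes (71.0%), against 26.7% of all genes and 33.7% of the 4492 genes in the same brightness range. It lay above the gene's own mean for 30 of the 31 (all but the lid gene Psmd3), against 2567 of those 4492 genes. KO 1 lay below the mean for 28 of the 31, and WT 2 for 26. Of those 4492 genes, 2268 were below it in KO 1 and 2749 in WT 2. The high head WT 1 and the low head WT 2 thus carried the same label. After quantile normalization WT 1 was highest for 20 of the 31 genes, against 39.9% of all genes and 29.7% of those in the brightness range. KO 1 was then below the mean for 22 of the 31 and WT 2 for 26. After median centring WT 1 was highest for 29, against 51.9% of all genes and 62.7% of those in the brightness range. KO 1 was then below the mean for 31 and WT 2 for 28. WT 1 had the lowest array median, 7.35 against 7.42 to 7.45 in the other 5 heads. The part of the array's scaling in the high proteasome signals of WT 1 was not tested.

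The mean of the immunoproteasome genes followed another order of heads, at −0.089, −0.074 and +0.049 in KO-labelled heads, against +0.098, +0.061 and −0.045 in WT-labelled heads. This mean was high in WT 1, as that of the standard genes was, but also in WT 2 and KO 3, where the standard genes were on average below their mean. This order rests on 3 genes, one of them below the brightness cut, and Psmb10 did not share it. Psmb10 stood at +0.0049 in KO 3 and +0.040 in WT 3. Psmb8 stood at +0.061 and −0.075 in these heads, and Psmb9 at +0.083 and −0.10.

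**Figure D4:**
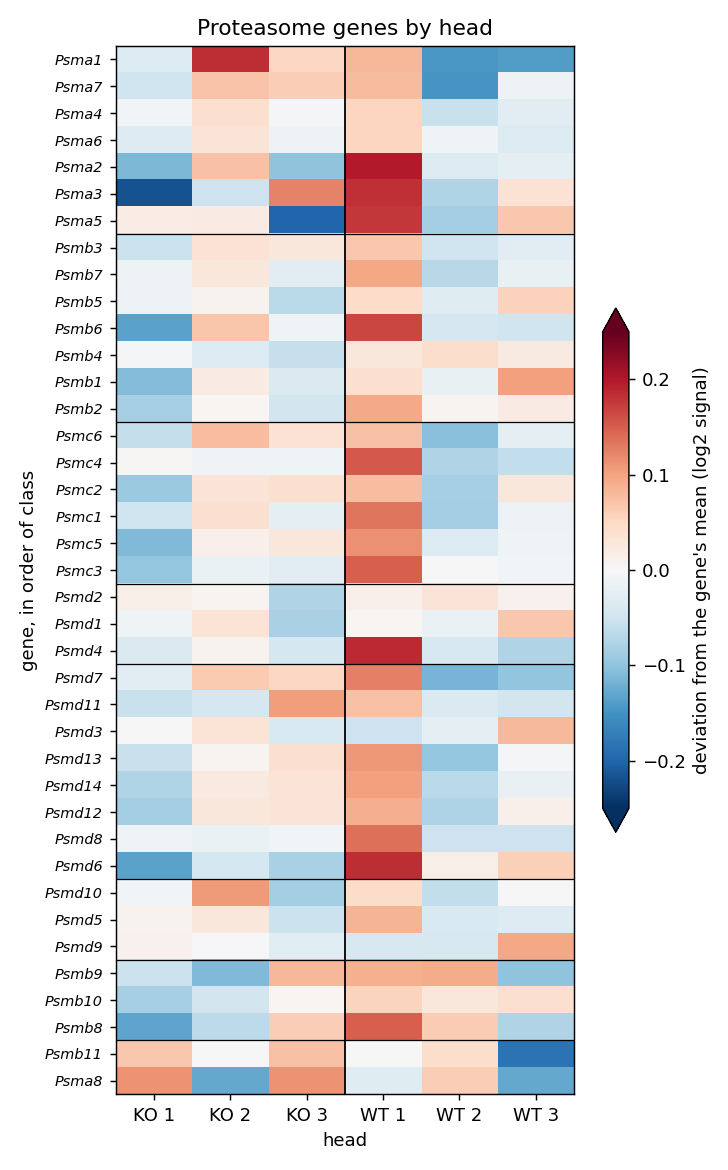
Deviation of each proteasome gene from its own mean over the 6 heads (log2 signal, red above and blue below), with genes in order of class and KO-labelled heads left of WT-labelled heads. The WT 1 column is above the mean for 30 of the 31 core and regulatory genes, and the KO 1 and WT 2 columns are below it for 28 and 26.

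Of the 39 genes, 5 had more than 1 probe set. The 3 probe sets annotated to Psma3 gave −0.097, −0.084 and −0.092. The pairs for Psma5 gave −0.11 and −0.051, for Psmc1 −0.022 and −0.053, and for Psmd2 −0.036 and −0.032. Those for Psmb3 gave +0.0070 and −0.064, with opposite signs. Whether any of these probe sets also reads a processed copy of the gene elsewhere in the genome is not known here.

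Genes on chromosome 2 were set apart because the targeted gene, Tasp1, lies there. Their distance from Tasp1 was not used. The 5 members there, Psma7, Psmb7, Psmc3, Psmd5 and Psmd14, had a median of −0.0096 with 4 lower, and the 34 elsewhere a median of −0.022 with 25 lower. Leaving out chromosome 2 moved the core median to −0.057 and left the regulatory median at −0.018.

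The partners of these subunits were taken from lists drawn up with earlier results of these data known. Of the 5 genes for other activators and the inhibitor of the core, 4 were lower and 1 higher, with a median of −0.11. Psme1 and Psme2 encode the interferon-inducible cap of the core. Psme1 read 9.48, 9.38 and 9.41 in KO-labelled heads, against 9.71, 9.51 and 9.52 in WT-labelled heads. Psme2 read 9.47, 9.49 and 9.44 in KO-labelled heads, against 9.67, 9.61 and 9.59 in WT-labelled heads.

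For both cap genes all KO-labelled heads lay below all WT-labelled heads, at −0.16 each, and neither passed (limma adjusted p = 0.78 for Psme1 and 0.67 for Psme2). Without WT 1 the Psme1 difference was −0.094 and that of Psme2 −0.13. The nuclear cap gene Psme3, the large activator gene Psme4 and the inhibitor gene Psmf1, on chromosome 2, differed by −0.0052, +0.068 and −0.11, with overlap in each.

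Of the 5 chaperones that assemble the core, 4 were lower and 1 higher, with a median of −0.094; Psmg3 differed by −0.16 and Psmg4 by −0.10. Among regulatory subunits outside the naming rule, Uchl5, a deubiquitinating enzyme, differed by +0.076 and Sem1 by −0.079, and Adrm1 was not analysed here. Of 6 proteasome-associated factors 5 were measured and all 5 were above 0, with a median of +0.036, led by the ubiquitin ligase gene Ube3c at +0.095. Akirin2, whose product carries proteasomes into the nucleus, differed by +0.043. None of these genes passed in limma, and the lowest adjusted p among them was 0.82.

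Of 7 genes for the transcription factors of subunit genes and their partners, 6 were measured, 3 higher and 3 lower, with a median of −0.013. Nfe2l1 read 10.12, 10.11 and 10.12 in KO-labelled heads, against 10.14, 10.15 and 10.15 in WT-labelled heads. The values did not overlap but lay within a very small range (−0.030, 95% confidence interval −0.13 to 0.069). Nfe2l2, the related stress factor gene on chromosome 2, differed by +0.095 and the small partner Maff by −0.086, and neither passed.

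Ubiquitin shuttle factors (4 of 5 measured, median +0.031) were led by Ubqln2 at +0.063 and Rad23b at +0.038. The genes of the p97 segregase, which pulls tagged proteins out of complexes (4 measured, median 0.0038), included Ufd1 at +0.034 and Nsfl1c at 0.0090. The 4 ubiquitin genes themselves were not analysed here.

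Proteasome products feed class I antigen presentation. Of 8 genes of that path, 6 were lower and 2 higher, with a median of −0.027. B2m, which encodes the light chain of class I molecules and lies on chromosome 2, read 10.81, 10.75 and 10.80 in KO-labelled heads, against 11.16, 10.98 and 11.00 in WT-labelled heads. All KO-labelled heads were lower (−0.26, SE 0.05, limma adjusted p = 0.25), and without WT 1 the difference was −0.21. Pdia3, a chaperone gene on the same chromosome, differed by +0.067.

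Of 8 interferon response genes 4 were measured, 2 higher and 2 lower. Ifit1 (+0.28) and Irgm1 (−0.28), both below the brightness cut, had opposite signs and neither passed (limma adjusted p = 0.65 each). Macrophages express the immunoproteasome, and 9 of their 12 markers were lower, with a median of −0.075 and none passing. Their mean log2 signal was 7.35, 7.24 and 7.36 in KO-labelled heads, against 7.42, 7.37 and 7.40 in WT-labelled heads. The marker C1qb differed by −0.30 and Spi1, on chromosome 2, by −0.17. The 3 higher markers were Cx3cr1 at +0.11, Aif1 at +0.094 and Ptprc at 0.0021. The part of macrophage number in the values of Psmb8, Psmb9, Psmb10, Psme1 and Psme2 was not tested.

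Erythroid markers (6 of 7 measured, all lower, median −0.14) included Hbb-bh1 at −0.21 and Alas2 at −0.13, those with the smallest p-values. The globin genes Hba-x and Hbb-y, bright in all heads, were nearest to 0, at −0.022 and −0.0005. The median of 8 endothelial markers was −0.00094 (4 higher, 4 lower). Ramp2 (−0.32) and Esam (−0.12) had the smallest p-values and Tek, at +0.073, was the highest. That of 7 forebrain and midbrain markers was −0.057 (3 higher, 4 lower). Lhx2 (−0.33) and Emx2 (−0.32) had the smallest p-values, and En1, Otx2 and Sox2 differed by +0.077, +0.042 and +0.030. For 5 hindbrain markers the median was −0.073 (1 higher, 4 lower). Egr2 (−0.20) and Hoxa2 (−0.14), both below the brightness cut, had the smallest p-values. None passed in limma, with adjusted p-values of 0.24 or more.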

How the data were processed

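The deposited table holds log2 signals, 1 value for each of 35556 probe sets on each of 6 arrays made from 100 ng of total RNA. Affymetrix Expression Console and MAS5 are named in the submitters' processing notes, without roles or versions; background correction, scaling and summarization are not stated there or elsewhere in the labels. The log2 values, as deposited by the authors, were used without further scaling. Correlations between arrays, across genes above the brightness cut, ran from 0.989 to 0.996.

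Of the probe sets, 21789 had 1 gene symbol in the platform annotation, 1621 several and 12146 none listed. Chromosomes came from GRCm38.p6. Labels were compared with limma 3.58.1 (R 4.3.3; lmFit, eBayes with trend, two-sided), fitted over 19938 genes and tested on simulated data. The number of arrays limits the precision. Figures were drawn with matplotlib 3.10.9.

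Values in every head were given for the catalytic and inducible genes and the 6 higher and 6 lower members of smallest p, and up to 2 genes were named per list; Psma8, Psmb11 and Psmc6 come from that rule, and other genes were named to account for all members or chosen after their values were seen. Members and lists were chosen with earlier results of these data known, so lists are described and not tested. The alternatives were quantile normalization, median centring, a 40% brightness filter, averaging of probe sets per gene, no variance trend, 64 added on the linear scale, the replicate number as a block and each head left out; the omission of chromosome 2 was chosen after seeing the data.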

Additional observations from a re-analysis of the deposited data

How the results depend on the processing

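The count of 0 proteasome genes passing in limma held under every alternative run, with 1 to 3 of them at an unadjusted p under 0.05. Over all genes the count passing was 2 in the fit reported, 1 with quantile normalization, median centring or the replicate block, and 0 with the brightness filter (841 at an unadjusted p under 0.05), without the variance trend (1226) or with 64 added (1236). With each head left out it ran from 0 to 11, the 11 without KO 1. The number of proteasome genes below 0 ran from 17 (without WT 1) to 35 (without WT 2), and was 33 with median centring and 26 with quantile normalization. The core median ran from −0.076 (median centring) to 0.00062 and the regulatory median from −0.055 to +0.035. Each crossed 0 only without WT 1. The immunoproteasome median ran from −0.12 to −0.039. The core minus the regulatory deviation ran from −0.016 to 0.0050, above 0 only without KO 3. Psmb7 turned to 0.0042 with quantile normalization. With a head left out, Psmb7 ran from −0.043 to 0.041, Psmb6 from −0.096 to 0.022, Psma7 from −0.0052 to 0.11 and Psmc6 from −0.0078 to 0.081; the cause was not tested. Median centring moved the median of all genes to −0.040. Across genes above the brightness cut, heads with the same replicate number did not deviate together (correlations of −0.17, −0.11 and −0.21). The numbers were thus not taken as pairs. Correlations above 0 were those of KO 1 with WT 2 (0.21), KO 2 with WT 3 (0.28) and KO 3 with WT 1 (0.27). Deviations were taken from the mean of each label. A head's correlations with the 3 heads of the other label therefore cannot all be below 0, and some value above 0 was forced. Whether those heads shared a litter or batch was not tested. With the replicate block 0 proteasome genes passed and 29 lay below 0.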
